A study of Homo sapiens with 8 samples.

Results

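The zinc finger genes of human chromosome 19 were followed across 3 lines of SH-SY5Y, a human neuroblastoma cell line of sympathoadrenal origin. Members were the genes with a ZNF symbol, a position on chromosome 19 and a mean of at least 100 normalized read counts over all 8 libraries. The rule left 229 of 254 such genes, out of 47591 entries in the whole table. The members were thus chosen by their mean normalized count, which is given here as a description only. Differences between the lines played no part in the choice except where a gene crossed the threshold through 1 line.

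Polyadenylated RNA was sequenced from G2, a line in which the splicing factor gene PRPF40B had been targeted with CRISPR/Cas9 and a guide called G2 (3 libraries), from SCR, made with the same machinery and a scrambled guide (3 libraries), and from unmodified WT cells (2 libraries). The edited colonies were grown from single cells by limiting dilution after puromycin selection, so G2 is a clone and differences from the other lines can include those between clones. The paper names G2 and SCR, but not WT, among the lines kept in puromycin. Differences from WT therefore cannot be told apart from those of puromycin in the culture. The labels call the libraries of a line biological replicates, without saying whether these were separate cultures, and the p-values measure the spread between them. Libraries held 61135884 to 77225106 normalized counts.

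Most zinc finger genes of chromosome 19 encode KRAB zinc finger proteins. An array of C2H2 fingers, each a small fold held by a zinc ion, reads a DNA sequence, often within a transposable element, and the KRAB domain in front of it recruits TRIM28 and with it the histone methyltransferase SETDB1. The genes arose by tandem duplication and lie side by side in clusters, so neighbours are often near copies of each other.

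PRPF40B itself stood at 840, 841 and 918 normalized counts in the G2 libraries, at 1686, 1672 and 1669 in SCR and at 1972 and 1668 in WT. All G2 libraries were below all 5 controls (exact two-sided permutation test of 3 against 5 libraries, p = 0.018, the smallest these 56 groupings allow), and G2/SCR gave a log2 fold change of -0.95 ± 0.08 (SE). PRPF40B transcript was therefore lower but present in the G2 libraries.

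The 229 members had mean levels of 101 to 14759 normalized counts, with a median of 878. Just inside the threshold were ZNF846 with 101, ZNF321P with 102 and ZNF844 with 113, and just outside it were ZNF471 with 96.8, ZNF274 with 91.9 and ZNF837 with 85.2. Per kilobase of exon the members ran from 14.2 normalized counts for ZNF208 to 3562 for ZNF146, with a median of 166. ZNF146, which encodes fingers without a KRAB domain, was the most abundant member, with 13981 to 15421 normalized counts in the 8 libraries. ZNF358 followed with 5668 to 9603 and ZNF875 with 5376 to 6761. The ranges of the 3 lines overlapped for ZNF146, whose log2 fold changes were 0.06, 0.02 and -0.04 in G2/SCR, G2/WT and SCR/WT.

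A coding sequence was found for 223 members. A pattern for the KRAB A box was matched in 191 of them, and the number of C2H2 fingers ran from 1 to 36 with a median of 12. ZNF208 had the 36 fingers. For 137 members no stretch of 75 bases, the read length, was shared with another ZNF gene, and 12 members shared over 10% of their stretches. Readthrough genes, which join neighbours into 1 transcript, are left out of these counts, and with them ZNF177 shared 94.35% with ZNF559-ZNF177, and ZNF625 and ZNF20 shared 76.41% and 73.04% with ZNF625-ZNF20. Genes without a ZNF symbol are left out too. With genes named only by an Ensembl number, ZNF709 shared 88.99%, ZNF564 82.32% and ZNF223 61.98%. Among the ZNF genes counted the highest share was that of ZNF98, for which 42.36% of stretches were also found in ZNF492. Reads of genes that share stretches could therefore not always be told apart. In addition, 98 members overlapped another entry of the table.

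Promoter windows, taken from RefSeq on GRCh38.p14 as 250 bases before and 50 after each start, were listed for 197 members with 247 starts in all. CCGGAAG, the core bound by ETS factors, was found on either strand in 41.3% of the members' windows. It was in 10.3% of all 35116 windows, in 16.4% of the windows of expressed genes (mean of 100 or more) without a ZNF name, and in 31.2% of those of expressed ZNF genes on other chromosomes. The members had a median of 20 CpG per window against 26 for the expressed genes without a ZNF name, and TATAAA was found in 2.8% against 6.2%. CACGTG, the E-box, was in 3.2% of the members' windows and 9.4% of theirs. CCGGAAG and CACGTG each hold a CpG and so overlap with the CpG count, and a match describes letters, not a bound site.

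The 150 bases before the first listed start are shown for 5 members with large differences between the lines, with the ETS core in capitals, to let the 2 with a match be read beside the 3 without one. ZNF578, higher in G2, lies at chr19:52453403-52453552 on the plus strand, and ZNF208, lower in G2 than in SCR, at chr19:22010944-22011093 on the minus strand. ZNF229, ZNF497 and ZNF414, lower in G2, lie at chr19:44448473-44448622, chr19:58362752-58362901 and chr19:8514168-8514317 on the minus strand.
ZNF578: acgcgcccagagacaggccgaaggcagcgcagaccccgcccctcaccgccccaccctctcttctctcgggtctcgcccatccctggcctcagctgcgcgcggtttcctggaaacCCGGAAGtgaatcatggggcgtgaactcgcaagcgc
ZNF208: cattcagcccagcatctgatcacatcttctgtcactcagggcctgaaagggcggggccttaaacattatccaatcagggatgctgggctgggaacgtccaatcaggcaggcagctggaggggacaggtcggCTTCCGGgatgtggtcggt
ZNF229: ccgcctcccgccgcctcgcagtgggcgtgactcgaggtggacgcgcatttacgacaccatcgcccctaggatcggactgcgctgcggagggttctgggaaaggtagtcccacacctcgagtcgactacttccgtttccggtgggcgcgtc
ZNF497: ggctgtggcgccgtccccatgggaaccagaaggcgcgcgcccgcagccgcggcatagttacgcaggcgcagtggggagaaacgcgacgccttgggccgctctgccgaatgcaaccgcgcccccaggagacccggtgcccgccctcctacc
ZNF414: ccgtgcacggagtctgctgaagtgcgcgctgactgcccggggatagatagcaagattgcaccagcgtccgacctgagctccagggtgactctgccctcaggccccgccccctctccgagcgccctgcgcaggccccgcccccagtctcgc
The ETS core began 36 bases before the start in ZNF578 and 19 bases before it, as its reverse complement, in ZNF208.

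The comparison G2/SCR asks which members differed with PRPF40B silencing between 2 lines that had both received the CRISPR/Cas9 machinery. A gene was called where its fold change was at least 1.5 and its Benjamini-Hochberg adjusted p at most 0.05 in a limma fit over all 18947 genes with a mean of at least 10. Of the 229 members, 5 rose and 16 fell in G2, which is 9.17% of them, where 25.0% of all genes tested were called (14.3% higher and 10.7% lower). Among genes as abundant as the members, with a mean of 100 or more, the share was 23.6%. The median log2 fold change of the members was -0.09, against -0.01 over all genes, and 81 were above 0 and 148 below. The quartiles of the members were -0.29 and 0.08, against -0.34 and 0.36 for all genes and -0.25 and 0.31 for genes with a mean of 100 or more. ZNF genes of other chromosomes lay as close together, with quartiles of -0.30 and 0.10.

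ZNF genes on the other chromosomes had a like share, with 10 higher and 15 lower of 239, or 10.5%. Other genes of chromosome 19 had 65 higher and 95 lower of 723, or 22.1%. For 57 members, or 24.9%, no G2 library fell within the range spanned by the 5 controls, and the share was 42.5% over all genes tested.

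**Figure D1:**
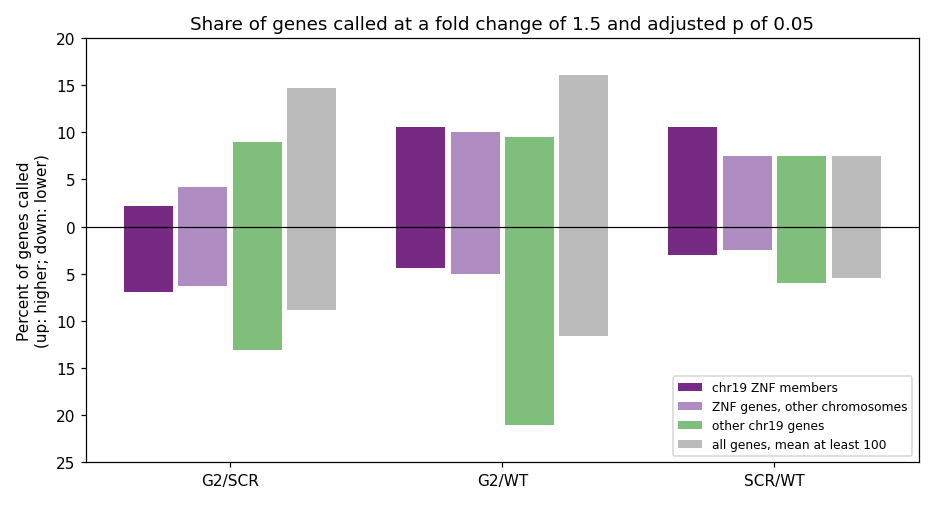
Percent of genes called higher (up) and lower (down) in each comparison, for the 229 members, 239 ZNF genes of other chromosomes, 723 other genes of chromosome 19 and all genes with a mean of at least 100. In G2/SCR the members had 2.18% higher and 6.99% lower, against 14.7% and 8.88% of all genes with such a mean.

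G2/WT and SCR/WT share libraries with G2/SCR and with each other, so their counts are set side by side. In G2/WT, 24 members were called higher and 10 lower, or 14.8% of the members against 28.2% of all genes (16.9% higher and 11.3% lower). The share was 15.1% for ZNF genes of other chromosomes. In SCR/WT, which compares the controls, 24 members were called higher and 7 lower, or 13.5% against 13.8% of all genes (8.95% higher and 4.83% lower), so here the share was near the background. ZNF578, ZNF99, ZNF844 and ZNF846, among the 24 higher in G2/WT, were members only through their level in G2. With the threshold of 100 put on the control libraries alone, a rule chosen after seeing the data, 20 were higher and 10 lower in G2/WT, and 3 were higher and 16 lower in G2/SCR. The median log2 fold changes of the members in G2/WT and SCR/WT were 0.09 and 0.21, against 0.00 and 0.01 over all genes. They were 0.05 and 0.14 for ZNF genes of other chromosomes. With the libraries scaled to the same total, which shifts the median of all genes to -0.10, 0.19 and 0.28 in G2/SCR, G2/WT and SCR/WT, the higher and lower members numbered 4 and 21, 46 and 6, and 80 and 2. These were 10.9%, 22.7% and 35.8% of the members, against 25.8%, 29.8% and 20.6% of all genes under that scaling, so the share in SCR/WT was then above the background. With the same upper quartile they numbered 4 and 21, 20 and 12, and 33 and 3, and the share in SCR/WT was 15.7% against 14.1% of all genes.

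**Figure D2:**
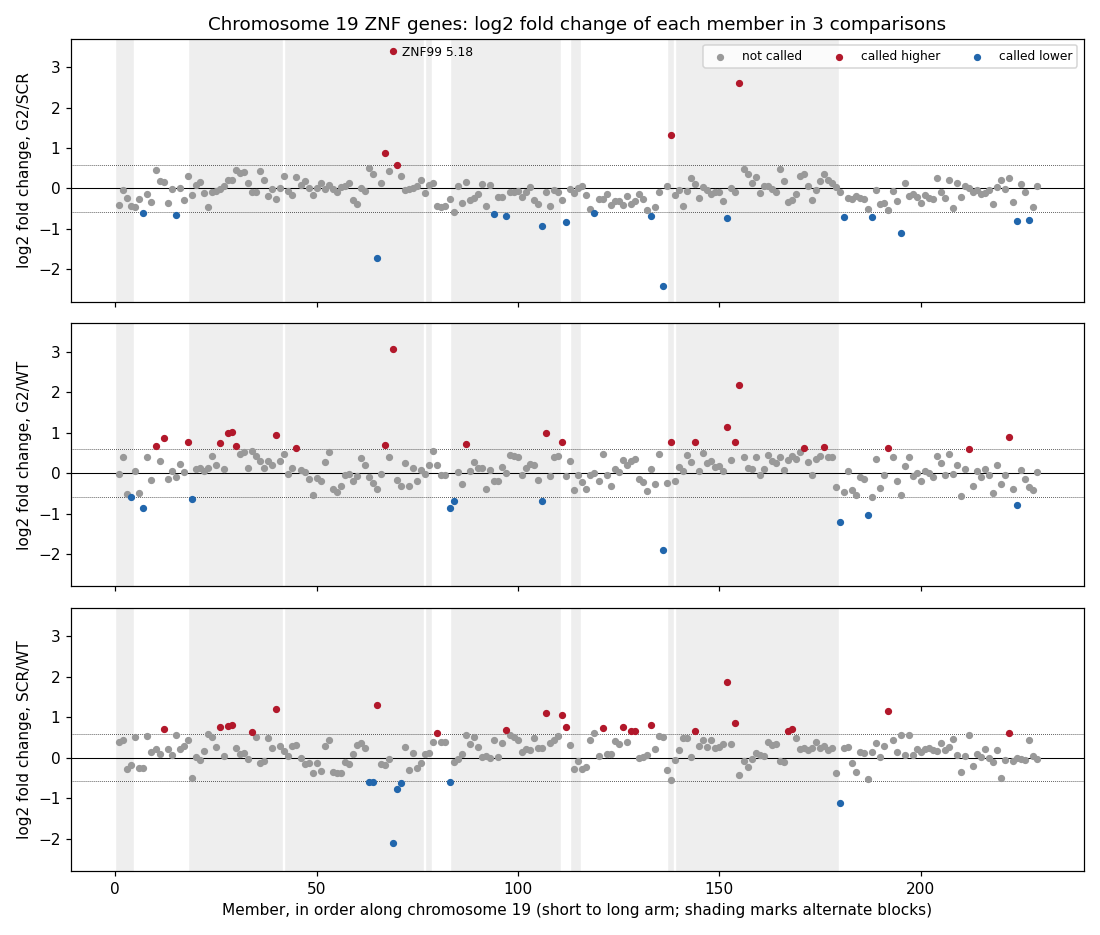
Log2 fold change (y axis) of each of the 229 members in order along chromosome 19 (x axis), for G2/SCR, G2/WT and SCR/WT, with shading for alternate blocks and dotted lines at a fold change of 1.5. Most members sit near 0 in each comparison, and in G2/SCR ZNF99 (5.18, drawn at the upper edge), ZNF578 (2.61) and ZNF229 (-2.41) stand farthest from it.

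For 7 members, or 3.06%, the same call was made in G2/SCR and G2/WT and none in SCR/WT, where 13.4% of all genes met this condition (8.12% higher and 5.24% lower). Among ZNF genes of other chromosomes 3.77% met it. ZNF578, ZNF114 and ZNF98 were higher in G2. ZNF229, ZNF540, ZNF497 and ZNF414 were lower. In each of the 7, no G2 library overlapped the 5 controls.

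ZNF578, at chr19:52453506-52516882 (hg38, as all positions here), had 358, 316 and 366 normalized counts in G2, 55.1, 54.4 and 58.2 in SCR, and 54.6 and 104 in WT. The lowest G2 library was thus far above the highest control, which was a WT library. In G2/SCR it rose by 2.61 ± 0.21 on the log2 scale (limma adjusted p = 7.8e-07), and in G2/WT by 2.18 ± 0.24. ZNF578 passed the level threshold only through G2, with a control mean of 65.3, so it had to differ to be a member.

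ZNF114, a gene with 3 fingers that lies alone at chr19:48270081-48287608, had 336, 290 and 293 normalized counts in G2, 112, 145 and 112 in SCR, and 169 and 192 in WT. It rose by 1.32 ± 0.14 in G2/SCR (limma adjusted p = 1.0e-05) and by 0.76 ± 0.16 in G2/WT, and the WT libraries lay between the other lines. ZNF98 had 242, 301 and 259 in G2, 135, 153 and 146 in SCR, and 171 and 155 in WT, and its log2 fold changes were 0.88 ± 0.13 and 0.70 ± 0.15. ZNF492, with which ZNF98 shares sequence, had values of 0.42 and 0.39 in the same comparisons and was not called.

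ZNF229, at chr19:44426254-44448580, was the member that fell most, with 59.3, 59.1 and 73.1 normalized counts in G2, 310, 346 and 371 in SCR, and 227 and 252 in WT. Every G2 library was below every control. Its log2 fold changes were -2.41 ± 0.14 against SCR (limma adjusted p = 4.5e-08) and -1.90 ± 0.16 against WT. Its neighbours on either side, ZNF285 and ZNF180, had -0.08 and 0.06 in G2/SCR and were not called.

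ZNF497 had 161, 164 and 177 normalized counts in G2, 286, 272 and 318 in SCR, and 303 and 282 in WT, with a log2 fold change of -0.80 in both comparisons (limma adjusted p = 1.1e-04 and 2.3e-04). The controls of both lines overlapped. The entry of ZNF540, which the table merges with the antisense gene ZNF571-AS1, had 247, 230 and 205 in G2, 464, 466 and 377 in SCR, and 334 and 407 in WT. It fell by 0.93 ± 0.13 and 0.70 ± 0.14 on the log2 scale, and how much of this belongs to either gene cannot be told from the table.

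ZNF414, a gene with 3 fingers and no KRAB match, had 325, 435 and 451 normalized counts in G2, 588, 554 and 692 in SCR, and 929 and 571 in WT. The WT libraries were far apart. Its log2 fold changes of -0.61 ± 0.18 and -0.87 ± 0.20 were no longer called in G2/SCR without G2 replicate 1 or SCR replicate 3, nor in G2/WT without WT replicate 1.

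**Figure D3:**
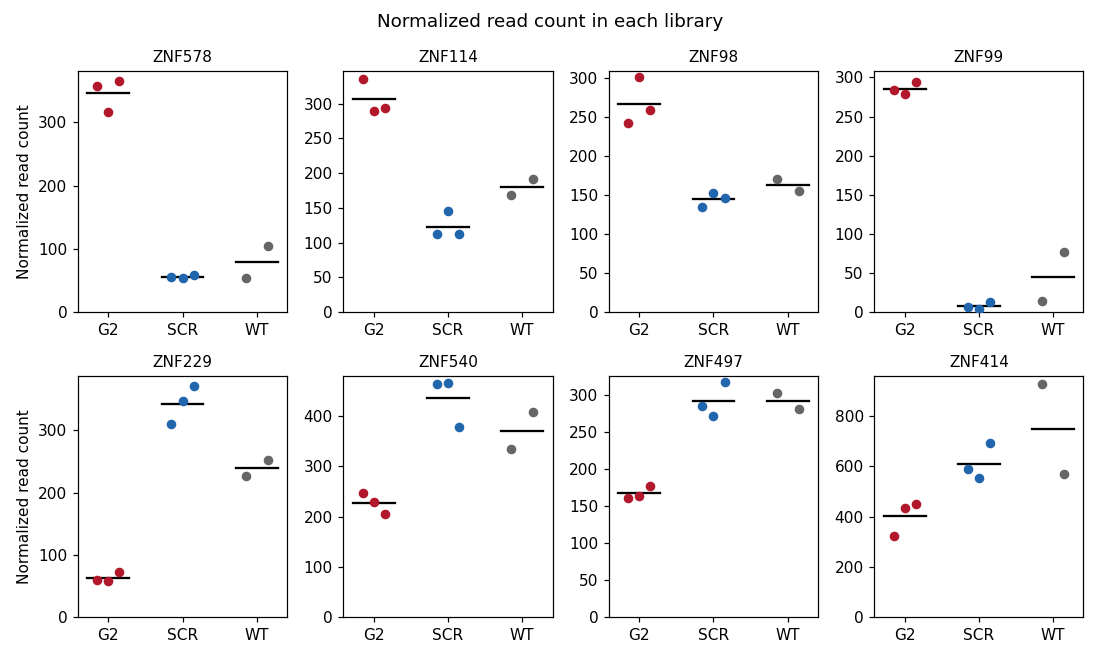
Normalized read counts (y axis, from 0) of 8 members in each library of G2 (3), SCR (3) and WT (2), with a bar at the mean of each line. ZNF578, ZNF114, ZNF98 and ZNF99 are higher in all G2 libraries than in any control, and ZNF229, ZNF540, ZNF497 and ZNF414 are lower.

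The largest fold change of any member was that of ZNF99, at chr19:22752183-22784151, which had 284, 279 and 294 normalized counts in G2, 6.12, 3.75 and 13.6 in SCR, and 13.7 and 77.4 in WT. It was near the limit of counting in SCR and in 1 WT library, while the other WT library was several times higher. It rose on the log2 scale by 5.18 ± 0.54 against SCR (limma adjusted p = 7.5e-06) and by 3.08 ± 0.61 against WT, and was called lower in SCR/WT (-2.10 ± 0.61, limma adjusted p = 0.018). The WT libraries set the size of both: without WT replicate 1 the values were 1.87 in G2/WT and -3.31 in SCR/WT, and without WT replicate 2 they were 4.29 and -0.89. The SCR/WT call was lost without WT replicate 2, SCR replicate 1 or SCR replicate 2. ZNF99 also passed the threshold through G2 alone, with a control mean of 22.9, as did ZNF846, ZNF844 and ZNF321P, whose control means were 88.1, 96.3 and 98.0.

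ZNF99 lies in a run of ZNF genes between ZNF208 and ZNF91, and several of its neighbours moved too. This run was examined after its values were seen. ZNF729, below the threshold with a mean of 64.3, had 162, 145 and 181 normalized counts in G2 against 4.08, 3.75 and 1.51 in SCR and 0.00 and 17.9 in WT, and was called higher against both controls (limma adjusted p = 2.2e-04 and 5.8e-04). ZNF723 had 45.2, 37.2 and 58.0 in G2 against 1.51 to 22.5 in the controls and was also called in both. ZNF729, ZNF98, ZNF99 and ZNF723 were thus called higher in G2, while ZNF492 among them was not, nor were ZNF676 and ZNF728 on either side of them.

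At the edges of the run the pattern differed. ZNF257 had log2 fold changes of 0.13 and -0.02 in G2/SCR and G2/WT. ZNF730 had 333, 371 and 371 normalized counts in G2, 220, 268 and 225 in SCR, and 416 and 394 in WT, so SCR stood low: it rose by 0.59 ± 0.11 in G2/SCR and fell by 0.77 ± 0.12 in SCR/WT on the log2 scale. ZNF208 stood high in SCR instead, with 334, 252 and 265 against 134, 65.7 and 70.9 in G2 and 94.4 and 134 in WT. ZNF91, whose protein represses SVA retrotransposons, had 1614, 1660 and 1647 in G2, 1612, 1747 and 1685 in SCR, and 1240 and 1562 in WT, and was not called in any comparison.

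**Figure D4:**
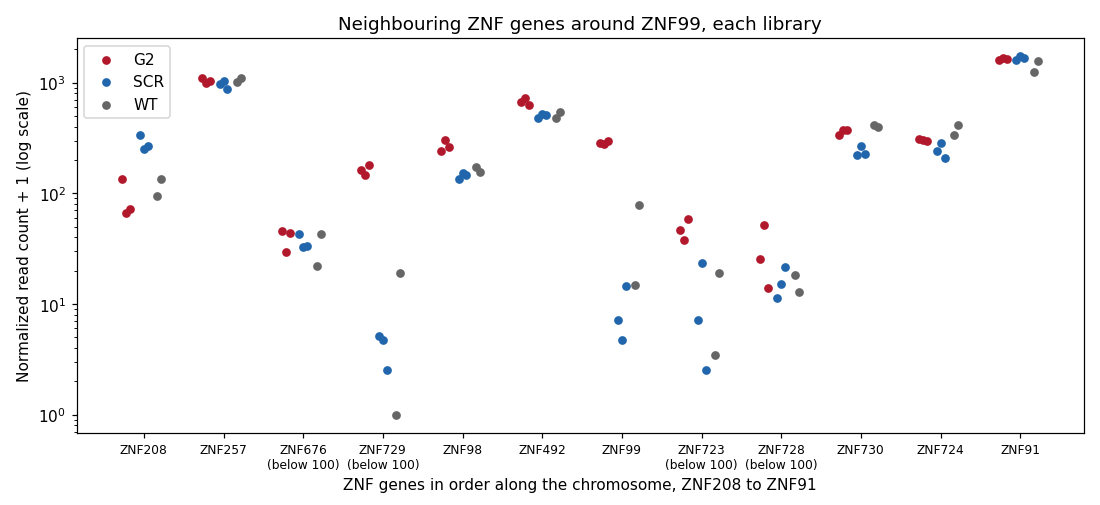
Normalized read count plus 1 (y axis, log scale) of the 12 ZNF genes from ZNF208 to ZNF91 in chromosome order, 1 point a library. ZNF729 and ZNF99 are over 140 in all G2 libraries and under 80 in all SCR and WT libraries, while ZNF257 and ZNF91 lie at like levels in the 3 lines.

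The remaining 12 members called in G2/SCR were lower in G2. ZNF208 fell by 1.71 ± 0.25 on the log2 scale in G2/SCR (limma adjusted p = 1.4e-04), with -0.39 in G2/WT and 1.31 in SCR/WT. ZNF610 had 739, 829 and 874 normalized counts in G2, 1345, 1350 and 1317 in SCR, and 448 and 296 in WT. The 3 lines did not overlap and G2 lay between the controls, so ZNF610 was called lower in G2/SCR (-0.72 ± 0.13) and higher in G2/WT (1.15 ± 0.14), with 1.87 ± 0.14 in SCR/WT.

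ZNF780B had 410, 354 and 364 normalized counts in G2, 664, 710 and 642 in SCR, and 338 and 459 in WT. G2 overlapped WT, with a log2 fold change of -0.07, and SCR was above both. ZNF420, a KRAB protein gene known for its role in p53 regulation, had 330, 339 and 286 in G2, 511, 521 and 510 in SCR, and 282 and 365 in WT, and values of -0.69, -0.01 and 0.68 in the 3 comparisons. ZNF121, with -0.66, -0.10 and 0.56, was alike, while the last of these was not called.

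ZNF835 had 127, 122 and 149 normalized counts in G2, 307, 242 and 315 in SCR, and 199 and 187 in WT. All G2 libraries were below both control lines, and it fell by 1.11 ± 0.14 on the log2 scale in G2/SCR (limma adjusted p = 4.5e-05), with -0.54 in G2/WT, short of the fold threshold. ZNF324B, with -0.78 against SCR and -0.35 against WT, and ZNF444, with -0.71 and -0.58, also had all G2 libraries below the controls. The remaining calls, ZNF579, ZNF233, ZNF345 and ZNF404, had -0.71 to -0.61. Of these, ZNF345 too had all G2 libraries below the controls, with -0.19 in G2/WT.

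In SCR/WT the members with the largest rises were ZNF610, ZNF208, ZNF490 and ZNF667. ZNF667 had 1019, 938 and 912 normalized counts in SCR and 369 and 498 in WT, a log2 fold change of 1.15 ± 0.12 (limma adjusted p = 3.0e-05). G2, with 695, 646 and 625, lay between them. ZNF490 had 362, 369 and 311 in SCR, 150 and 151 in WT, and 229, 311 and 346 in G2. Both SCR and G2 were thus above WT, with 1.20 ± 0.17 in SCR/WT and 0.95 ± 0.17 in G2/WT.

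The largest falls in SCR/WT, beside ZNF99, were those of ZNF628, ZNF730 and ZNF724. ZNF628, with 16 fingers and no KRAB match, had 476, 434 and 472 normalized counts in SCR, 1199 and 836 in WT, and 398, 397 and 506 in G2. SCR and G2 overlapped and both were below WT, by -1.12 ± 0.15 and -1.21 ± 0.15 on the log2 scale. ZNF724 had 241, 282 and 207 in SCR and 338 and 416 in WT.

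In G2/WT, beyond the members already described, ZNF787 and ZNF792 were among those called lower. ZNF787 had 699, 773 and 928 normalized counts in G2, 1245, 963 and 1213 in SCR, and 1831 and 1438 in WT. The 3 lines did not overlap, with G2 lowest, and the log2 fold change was -1.03 ± 0.15 against WT (limma adjusted p = 9.3e-05) and -0.51 against SCR. ZNF792 had 2099, 2246 and 2345 in G2, 2604, 2797 and 2626 in SCR, and 4125 and 4000 in WT, in the same order. It was called lower in G2/WT (-0.87 ± 0.07) and in SCR/WT (-0.60 ± 0.07).

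Among the members called higher in G2/WT, ZNF260 had 4638, 4497 and 4390 normalized counts in G2, 3918, 4186 and 4040 in SCR, and 2494 and 2998 in WT. Its log2 fold changes against WT were 0.72 ± 0.08 for G2 and 0.57 ± 0.08 for SCR, the latter just short of the fold threshold. ZNF571 had 286, 205 and 306 in G2, 261, 325 and 258 in SCR, and 123 and 138 in WT, so G2 and SCR overlapped above WT. ZNF699 had 597, 475 and 545 in G2, 361, 457 and 368 in SCR, and 279 and 408 in WT, with G2 above both controls and 0.67 ± 0.17 in G2/WT. That call was lost without WT replicate 1.

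The members fell into 16 blocks when split wherever the start of the next member was over 1 Mb away, and 8 blocks with 5 or more members held 215 of them. Between these 8 blocks the median log2 fold change in G2/SCR ran from -0.43 to 0.05. The lowest, of 5 members from ZNF302 to ZNF792 (34.68 to 34.96 Mb), held no call, and the next, of 22 members from ZNF576 to ZNF180 (43.60 to 44.50 Mb), had a median of -0.31 with 20 members below 0 and 3 called lower. The same 22 members had a median of 0.36 in SCR/WT with 5 called higher and none lower, and -0.04 in G2/WT. Over all genes tested, 10.7% were called lower in G2/SCR, and 8.95% higher and 4.83% lower in SCR/WT.

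ZNF233, in that block, had 645, 783 and 605 normalized counts in G2, 1109, 1085 and 1073 in SCR, and 662 and 592 in WT. G2 and WT overlapped and SCR was above both. The nearest members did not share the difference between SCR and WT. ZNF235, which overlaps ZNF233 on the other strand, ZNF227 and ZNF226 had log2 fold changes of 0.07, 0.02 and -0.01 in SCR/WT. ZNF112 on the other side had 0.21 there, and none of these was called. In G2/SCR, however, ZNF112 went the same way as ZNF233, with -0.47 ± 0.10, short of the fold threshold. Farther off in the block, ZNF284, ZNF225 and ZNF234 had log2 fold changes of 0.75, 0.67 and 0.66 in SCR/WT, all called, and -0.42, -0.38 and -0.30 in G2/SCR, none of which reached the fold threshold.

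The 34 members from ZNF101 to ZNF254 (19.67 to 24.13 Mb), the block that holds ZNF99, had medians of 0.05 in G2/SCR, -0.03 in G2/WT and -0.14 in SCR/WT. None of these directions was stable: they turned to -0.01 without SCR replicate 1 in G2/SCR, and to 0.08 and 0.05 without WT replicate 2 in G2/WT and SCR/WT. With the libraries scaled to the same total they were -0.04, 0.16 and 0.14. In SCR/WT 5 of them were called lower and 1 higher, against 4.83% and 8.95% of all genes. The other 15 blocks together held 2 lower calls, ZNF628 and ZNF792. Besides ZNF99, ZNF730 and ZNF724, the 5 included ZNF100, with 1422, 1689 and 1527 normalized counts in SCR against 2275 and 2416 in WT. The last was ZNF43, with 3812, 4404 and 4073 against 5756 and 6591. ZNF100 and ZNF43, at -0.60 and -0.59 on the log2 scale, were just past the fold threshold. With the same total or the same upper quartile, fewer members in all were called lower in SCR/WT. ZNF93, in the same block, whose protein binds L1 retrotransposons, had 0.18, 0.02 and -0.16 in the 3 comparisons and was not called.

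In G2/WT the highest medians were those of the 40 members from ZNF175 to ZNF331 (51.57 to 53.58 Mb), with 0.33, and of the 23 from ZNF653 to ZNF791 (11.48 to 12.63 Mb), with 0.29. There 37 of 40 and 22 of 23 members were above 0, and 6 and 5 were called higher. Over all genes tested, 16.9% were called higher in G2/WT. Both blocks had medians above 0 in SCR/WT as well, of 0.26 and 0.23, and in G2/SCR they stood at 0.02 and 0.00. ZNF528 had 3569, 3708 and 3861 normalized counts in G2, 3942, 4047 and 3814 in SCR, and 2178 and 2150 in WT, so both G2 and SCR were above WT. ZNF433 had 254, 269 and 284 in G2, 185, 305 and 228 in SCR, and 134 and 131 in WT.

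At the end nearest the start of the chromosome, all 4 members from ZNF554 to ZNF77 (2.82 to 2.94 Mb) were below 0 in G2/SCR, and ZNF77 was called lower in G2/WT. ZNF77 had 800, 739 and 677 normalized counts in G2, 964, 1000 and 1020 in SCR, and 1119 and 1123 in WT, so the lines did not overlap. The 5 members that lie alone, over 1 Mb from the next, were ZNF333, ZNF536, ZNF507, ZNF114 and ZNF473, and of these ZNF114 alone was called. ZNF473, whose protein takes part in the processing of histone transcripts, had 3605, 3693 and 3772 in G2, 4004, 4254 and 3997 in SCR, and 4147 and 4309 in WT. G2 was below all controls, but the log2 fold changes of -0.15 ± 0.05 and -0.20 ± 0.06 were far under the fold threshold.

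Other genes within the bounds of a block followed the members in some blocks and not in others. From ZNF302 to ZNF792, 12 other genes with a mean of at least 100 had a median of -0.30 in G2/SCR. Of these 11 were below 0, and the members had -0.43. From ZNF576 to ZNF180, 4 such genes had a median of 0.25 with 3 above 0, and the members had -0.31. In the block from ZNF653 to ZNF791, 4 other genes with a mean of at least 100 had a median of -0.56 in G2/WT, and all 4 were below 0. In the last block, of 50 members from ZNF628 to ZNF446 (55.48 to 58.49 Mb), the members had medians of -0.19 and -0.06 in G2/SCR and G2/WT, and 25 other genes had -0.20 and -0.17.

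**Figure D5:**
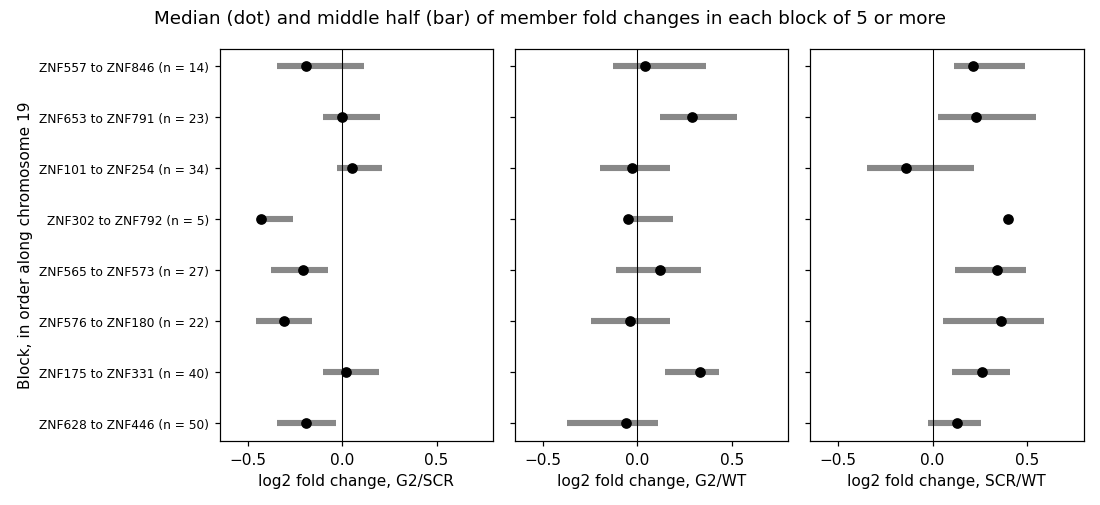
Median log2 fold change (dot) and the span between the quartiles (bar) of the members in each of the 8 blocks with 5 or more, in order along chromosome 19, for the 3 comparisons. In SCR/WT the block from ZNF101 to ZNF254 lies below 0 (-0.14) and the other 7 above it (0.13 to 0.40), although the former turned to 0.05 without WT replicate 2.

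By protein class, the 32 members with a coding sequence and no KRAB match held 7 of the calls in G2/SCR, or 21.9%. All 7 were lower (ZNF414, ZNF121, ZNF345, ZNF579, ZNF444, ZNF835 and ZNF497). Over all genes tested, 10.7% were called lower and 14.3% higher. The 191 with a KRAB match held 5 higher and 9 lower calls, or 7.33%. In G2/WT the median log2 fold change was 0.12 for the members with a KRAB match and -0.17 for those without, and in SCR/WT it was 0.22 and -0.02. By number of fingers, the medians in G2/SCR were -0.21, -0.04 and -0.09 for members with 1 to 9, 10 to 14 and 15 or more fingers. Of the members with an ETS core in a window, 6 of 96 (6.25%) were called in G2/SCR, and of those without, 10 of 101 (9.90%). Both shares were below the 25.0% of all genes tested.

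Several members known from tumour or neural work were not called in any comparison. ZNF536, known as a brain gene that limits neuronal differentiation, had 1352, 1427 and 1411 normalized counts in G2, 1555, 1498 and 1471 in SCR, and 1286 and 1564 in WT. Its log2 fold changes were -0.11, -0.02 and 0.09. ZNF331, an imprinted gene, had -0.35 in G2/WT and -0.39 in SCR/WT, and ZNF382 had 0.52 in SCR/WT, all short of the fold threshold. ZNF132 and ZNF677, often methylated in carcinomas, had -0.09 and -0.29 in G2/SCR. ZNF154, also known as methylated in tumours, was at 8.94 normalized counts or less in all libraries and was not tested. Others chosen from the literature were called, namely ZNF420, ZNF667 and ZNF274, described elsewhere here, and ZNF471. ZNF471, just below the threshold, was higher in G2/WT (1.02, limma adjusted p = 0.0025) and SCR/WT (1.04, limma adjusted p = 0.004), with -0.02 in G2/SCR.

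Of the 25 genes below the threshold, 21 could be tested, and 4 of them were called higher and 1 lower in G2/SCR, a share near the 25.0% of all genes. In G2/WT these counts were 7 and 2, where 28.2% of all genes were called, and in SCR/WT 4 and 2, where 13.8% were. ZNF135 had 140, 178 and 160 normalized counts in G2, 29.6, 46.0 and 48.4 in SCR, and 18.6 and 29.8 in WT, with log2 fold changes of 1.95 against SCR and 2.70 against WT (limma adjusted p = 6.4e-05 and 1.0e-05). ZNF556 had 39.5, 29.6 and 23.6 in G2 against 93.9, 93.8 and 87.7 in SCR and 45.9 and 49.6 in WT. ZNF274, which binds the 3' ends of ZNF genes and recruits SETDB1 there, had 72.5, 104 and 80.6 in G2, 59.2, 79.8 and 86.2 in SCR, and 129 and 124 in WT, and was called lower in SCR/WT alone (-0.76, limma adjusted p = 0.022), at -0.57 in G2/WT.

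Few genes were called in a list of the corepressors that KRAB proteins use and of enzymes that add or remove DNA and histone methylation. Of its 29 genes, all tested, 2 were called higher in G2/SCR, HDAC1 (0.93 ± 0.05) and TET1 (0.72 ± 0.13), and none lower, where 25.0% of all genes tested were called, and the median of the list was -0.02. HDAC1 encodes a histone deacetylase while TET1, like TET2, oxidizes 5-methylcytosine and so acts against DNA methylation. TRIM28, the corepressor that KRAB domains bind, had log2 fold changes of -0.10, -0.50 and -0.40 in G2/SCR, G2/WT and SCR/WT, and SETDB1 had -0.25, -0.30 and -0.05, none called. UHRF1, a partner of the maintenance methyltransferase DNMT1, was called lower in G2/WT (-0.81) and SCR/WT (-0.66), and TET2 higher in G2/WT (0.71), and these were the only calls of the list there, against 28.2% and 13.8% of all genes. Of 18 symbols listed for chromosome 19 C2H2 genes without a ZNF name, 12 entries were tested. HKR1 and ZFP112 are other names of ZNF875 and ZNF112, which are members under those symbols. In G2/SCR 1 was called lower, the entry that merges ZIM2 and PEG3 (-0.64), where 25.0% of all genes were called. ZFP14 and ZSCAN18 were higher and ZSCAN5A lower in both G2/WT and SCR/WT, against 28.2% and 13.8% of all genes called.

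Beside these results, markers of the cell state moved between the lines. Of the 12 sympathoadrenal markers, 8 were called lower in G2/SCR, where 10.7% of all genes tested were called lower. GATA3, not called, went the other way (0.37). HAND2, a transcription factor of sympathetic neurons, was still at 33678 normalized counts on average in G2. TH was at or under the floor in G2. Of 14 mesenchymal or fibroblast markers, 11 were tested and 9 were called higher in G2/SCR, where 14.3% of all genes tested were called higher. TWIST1 (-0.39) and PDGFRB (0.31) were not called. In SCR/WT 3 were called higher, COL3A1 (3.72), DCN (2.65) and LUM (1.80). The sum of the mesenchymal or fibroblast markers was 362118 to 366229 in G2, 136386 to 143600 in SCR and 103462 to 117817 in WT. POSTN, TWIST2 and FN1 were at or under the floor in all libraries. Of the 4 epithelial markers, 3 were tested and none was called in G2/SCR. KRT18 was called higher in G2/WT (4.76) and SCR/WT (4.19), with 0.00 and 1.99 normalized counts in WT. None of 3 haematopoietic markers reached the level for testing. The part of these shifts in the values of the ZNF genes was not tested, and fewer cells of a type cannot be told apart from less RNA per cell in bulk samples.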

How the data were processed

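Reads (Illumina, 75 bases from both ends, stranded) were mapped by the authors with STAR 2.7.5a on hg38 and counted with featureCounts (Subread 1.5.0) on FAST DB annotations. The deposited signal is a count per gene divided by a DESeq2 size factor, called a normalized count here. The table also holds the authors' own comparisons, which were not used. Dividing by the value of 1 read gave whole numbers (tolerance 0.01) for 100% of values in each library, and recovered totals of 59804395 to 81080747. For WT replicate 2 that value is too near 1 to be told apart, so count tests were run on G2/SCR only. Small recovered counts were mostly multiples of 3, for which the sources used here give no reason, and the floor was set at 9 recovered counts in place of 3. Intervals were not drawn from counts.

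The 18947 genes whose mean reached 10 were fitted with limma 3.58.1 (R 4.3.3, trended empirical Bayes) on log2(value + 1), with 1 mean for each line. This understates the change of low genes. Log2 fold changes carry the SE of that fit. A call needed a fold change of 1.5 or more and an adjusted p of 0.05 or less (Benjamini-Hochberg, over all genes tested), in place of an unadjusted p. Alternatives were another pseudocount, filter, scaling, threshold, fit, left-out library or member rule, edgeR 4.0.16 and DESeq2 1.42.0. edgeR called 4850 genes and DESeq2 4739 in G2/SCR, against 4729. Data were simulated for G2/SCR over 18947 genes, with the same spread set for every gene. In each draw 200 genes were changed, all with a control mean of at least 100. Of these, 96.2% of genes changed 2-fold and 76.1% of those changed 1.7-fold were called. So were 89% and 74% of those lowered to 0.5 and 0.6 of their level. The rates do not cover genes of lower level, or data in which as many genes differ as here.

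Fingers and KRAB boxes were matched in the longest coding sequence of GENCODE 44, translated, as was sequence sharing. The KRAB pattern can miss divergent boxes. Blocks, lists and genes to name followed fixed rules: members called for G2 alone, the highest levels and those at the threshold, the 4 largest rises and falls in SCR/WT, members known from the literature, and the extremes of each block. The members and lists were chosen with earlier results of these data known. Other genes named were chosen after their values were seen.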

Additional observations from a re-analysis of the deposited data

How the results depend on the processing

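Among 42 called values of the named members, 727 of 786 alternative values kept their call and direction and 59 lost the call, and none of them reversed. With the libraries scaled to the same total, the median log2 fold changes of the members were -0.18, 0.27 and 0.49 in G2/SCR, G2/WT and SCR/WT, 46 were higher and 6 lower in G2/WT, 80 higher and 2 lower in SCR/WT, and 4 and 2 corepressor and methylation genes were called in those comparisons. The same upper quartile gave -0.18 in G2/SCR and 3 lower in SCR/WT. With a 2-fold threshold, 3 members were higher and 3 lower in G2/SCR. The counts were 5 and 3 against WT, 6 and 2 in SCR/WT, and 2 were called for G2 alone, 0 corepressor and methylation genes were called in any comparison, other C2H2 genes numbered 0, 0 and 1, and PRPF40B, at -0.95 in G2/SCR, missed that threshold. Members with a mean of at least 300 gave 1 higher in G2/SCR, 12 in G2/WT and 2 for G2 alone. The threshold of 100 put on the control libraries alone, chosen after seeing the data, gave 3 higher in G2/SCR. edgeR and DESeq2 on recovered counts each called 5 higher and 16 lower members in G2/SCR.

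Leaving out 1 library at a time gave 4 to 11 members for G2 alone, with 4 without WT replicate 1 and 11 without G2 replicate 3. Lower members in SCR/WT numbered 4 to 8, with 4 without SCR replicate 1. Higher members in SCR/WT numbered 24 to 36, with 36 without WT replicate 2. Medians ran from 0.03 to 0.15 in G2/WT and 0.13 to 0.25 in SCR/WT. The span between the highest and lowest block medians ran from 0.40 to 0.53, 0.38 to 0.48 and 0.33 to 0.63 in the 3 comparisons. The KRAB median minus that without KRAB ran from 0.01 to 0.13, 0.23 to 0.42 and 0.11 to 0.33. Corepressor and methylation genes called numbered 2 to 4 in G2/WT and 1 to 3 in SCR/WT, and other C2H2 genes 0 to 1, 3 to 4 and 3 to 4. The causes were not tested.

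G2 and SCR libraries with the same replicate number had correlations of -0.126, 0.046 and 0.147 of their deviations over 13065 genes. Those with different numbers had -0.203 to 0.173. Deviations from a mean of 3 libraries depend on each other, so these values cannot show whether libraries were paired. The library names carry other numbers, which were not checked. With the replicate number as a block, 5 members were higher and 15 lower in G2/SCR. The counts were 24 and 13 against WT and 24 and 5 in SCR/WT, and the block span in SCR/WT was 0.48. The call rule itself leaves out any difference under 1.5-fold. Low genes had wide errors, with an SE of 0.84 for ZNF729 and 0.81 for ZNF723 in G2/SCR.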
